A study of Mus musculus with 2 samples.

Results

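The FoxO transcription factors and the phosphoinositide 3-kinase (PI3K) pathway that restrains them are represented here by 9 genes, read in gamma/delta T cells and in CD8+ alpha/beta T cells. They comprise the factors Foxo1 and Foxo3, the kinase subunit Pik3cd, the PI3K inhibitor Pik3ip1, and the genes Ccng2, Klhl24, Sesn1, Sesn3 and Txnip, which are known in other settings as FoxO targets or as genes of resting cells. Every probe set that the platform annotation assigns to 1 of these symbols alone was taken, which gave 30 of 45101 probe sets and 9 of 18193 genes. The genes were grouped by function with the ratios between these same arrays already known, so the values that follow describe the arrays and test nothing.

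The tested preparation was naive gamma/delta T cells, labelled CD44-, and it was set against naive CD8+ alpha/beta T cells. The source of both was C57BL/6 lymph nodes, purification was by negative selection, and the labels name no further allele or treatment. Each was hybridised to 1 Affymetrix MOE430 2.0 array, a 1-colour array on which short oligonucleotides, grouped into probe sets, read each transcript. Neither group has a replicate, so no standard error or p-value can be given. Cell type, preparation and array cannot be told apart, and the labels do not give the number of mice behind each preparation.

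Values are linear MAS5 signals in scaled units. A signal under 243.3, the higher of the arrays' medians, was treated as too weak to rank and was raised to that floor before a ratio was taken. Hence a probe set under the floor on a single array gives a limit only, which is marked by the words at least before its fold, and one under it on both gives no ratio. A ratio of 2-fold or more is given as a call. Signals of different probe sets are not compared with each other, because each binds its target with its own strength. The log2 ratios of probe sets that read the same gene scattered around their mean with a pooled SD of 0.50 over 3317 genes. It is the one spread these arrays offer, and a difference between 2 ratios varies by more than it.

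The labelled cell types were checked against their markers. Trgv4 and Trgv1, variable segments of the gamma receptor chain, read 12522 and 9449 in gamma/delta cells, against 170.4 and 13.7 in alpha/beta cells. Cd8a, a chain of the CD8 coreceptor, read 731.1 in gamma/delta cells, above the floor, against 8852 in alpha/beta cells. The 5 probe sets of Cd8a with a ratio ran from -3.60 to -1.19 on the log2 scale. Cd8b1, the other CD8 chain, read 382.3 in gamma/delta cells, also above the floor, against 2193 in alpha/beta cells. Of 7 B cell markers, 4 had a ratio, all above 0 and none 2-fold on the probe set with the strongest signal. Ebf1 read 3331 in gamma/delta cells against 2650 in alpha/beta cells, Ighm 1025 against 789.0, and Ms4a1 858.2 against 616.0. The probe sets of Ighm with a ratio ran from -0.28 to 1.21 on the log2 scale, and those of Ebf1 from -0.198 to 0.33. Cd79b gave a bound, and Cd79a, Pax5 and Cd74 reached the floor on neither array. The summed signal of all 7, to which Ebf1 contributed most, was 5763 on the gamma/delta array against 4653 on the alpha/beta array. Of 4 NK cell markers, 2 had a ratio, and the summed signal of the 4 was 1830 in gamma/delta cells against 532.7 in alpha/beta cells. Gzma read 1442 in gamma/delta cells against 73.4 in alpha/beta cells, while on neither array did Ncr1 or Tyrobp reach the floor. The ratio of 3′ to 5′ actin signal, a measure of RNA integrity, was 6.99 on the gamma/delta array against 3.12 on the alpha/beta array, and for Gapdh it was 3.06 against 3.24. The part of other cells or of RNA integrity in the ratios of the FoxO pathway genes was not tested. In a preparation of many cells, fewer cells with a transcript and less transcript per cell cannot be told apart.

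FoxO factors hold lymphocytes in a resting, recirculating state. When antigen receptors or cytokine receptors engage PI3K, the lipid it makes recruits the kinase Akt, which phosphorylates FoxO proteins so that they leave the nucleus and their target genes are no longer driven. Transcript levels of the factors themselves therefore do not report their activity, and in T cells FoxO1 is best known for maintaining the interleukin 7 receptor and homing receptors.

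Windows of promoter sequence were available for 8 of the 9 genes, each from 250 bases before to 50 bases after an annotated start, from RefSeq on build GRCm38.p6. Klhl24 was not among them. The letter strings searched on both strands were GTAAACA, the core of the FoxO consensus, CAAAACA, the core of the insulin response element that FoxO factors also bind, and CACGTG, the E-box. GTAAACA was found in windows of Sesn1 and Txnip, that is in 2 of 11 windows, and 3.65% of all 32851 windows hold it. CAAAACA was found in the window of Ccng2, against 6.28% of all windows, and CACGTG in none, against 7.15%. All 3 windows with a FoxO-type match are printed, whatever the ratio of their gene, with the matching letters in capitals. A match is a string of letters and not a measured binding site.
Sesn1, chr10:41810324-41810623, plus strand: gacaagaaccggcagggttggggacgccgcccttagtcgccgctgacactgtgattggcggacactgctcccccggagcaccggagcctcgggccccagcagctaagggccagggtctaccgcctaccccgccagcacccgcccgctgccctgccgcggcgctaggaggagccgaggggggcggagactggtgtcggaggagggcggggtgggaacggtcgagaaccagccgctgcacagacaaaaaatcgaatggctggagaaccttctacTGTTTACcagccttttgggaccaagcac
Txnip, chr3:96557707-96558006, plus strand: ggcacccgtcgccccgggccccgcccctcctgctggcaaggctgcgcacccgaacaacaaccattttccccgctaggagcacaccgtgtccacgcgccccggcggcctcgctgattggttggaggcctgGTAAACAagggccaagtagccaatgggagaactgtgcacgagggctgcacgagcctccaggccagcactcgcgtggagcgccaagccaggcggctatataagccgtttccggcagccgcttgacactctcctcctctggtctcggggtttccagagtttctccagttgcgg
Ccng2, chr5:93267323-93267622, plus strand: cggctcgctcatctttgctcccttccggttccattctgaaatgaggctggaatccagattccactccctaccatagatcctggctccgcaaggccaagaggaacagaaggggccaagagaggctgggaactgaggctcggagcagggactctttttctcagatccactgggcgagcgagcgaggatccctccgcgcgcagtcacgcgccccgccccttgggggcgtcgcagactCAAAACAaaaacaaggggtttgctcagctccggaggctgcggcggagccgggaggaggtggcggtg

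The match begins 121 bases before the start in Txnip and 16 bases before it in Ccng2. In Sesn1 it lies on the opposite strand and begins 22 bases after the start, inside the transcribed part. Sesn1 has a further window at a second annotated start, which holds none of the 3 strings.

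By the probe set with the strongest signal, Foxo1, Foxo3, Pik3cd and Pik3ip1 had ratios slightly above 0, and Txnip, Sesn1, Sesn3, Ccng2 and Klhl24 had ratios below 0. Pik3ip1 is itself a FoxO target, and the sides of both Pik3ip1 and Sesn3 depend on the probe set. Of the 30 probe sets, 25 had a ratio, 20 of them measured on both arrays and 5 as bounds, and 5 lay under the floor on both arrays. Lower by 2-fold or more in gamma/delta cells were 9 of the 25, or 36.0%, beside 4.37% of all 20297 probe sets with 1 symbol and a ratio. Higher by 2-fold or more were 0 of the 25, beside 5.2% of all. Because the genes were chosen with these ratios known, the gap between 36.0% and the background is a property of the choice. The 9 calls came from 5 genes, with 4 from Sesn1, 2 from Klhl24 and 1 each from Ccng2, Sesn3 and Pik3ip1.

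**Figure D1:**
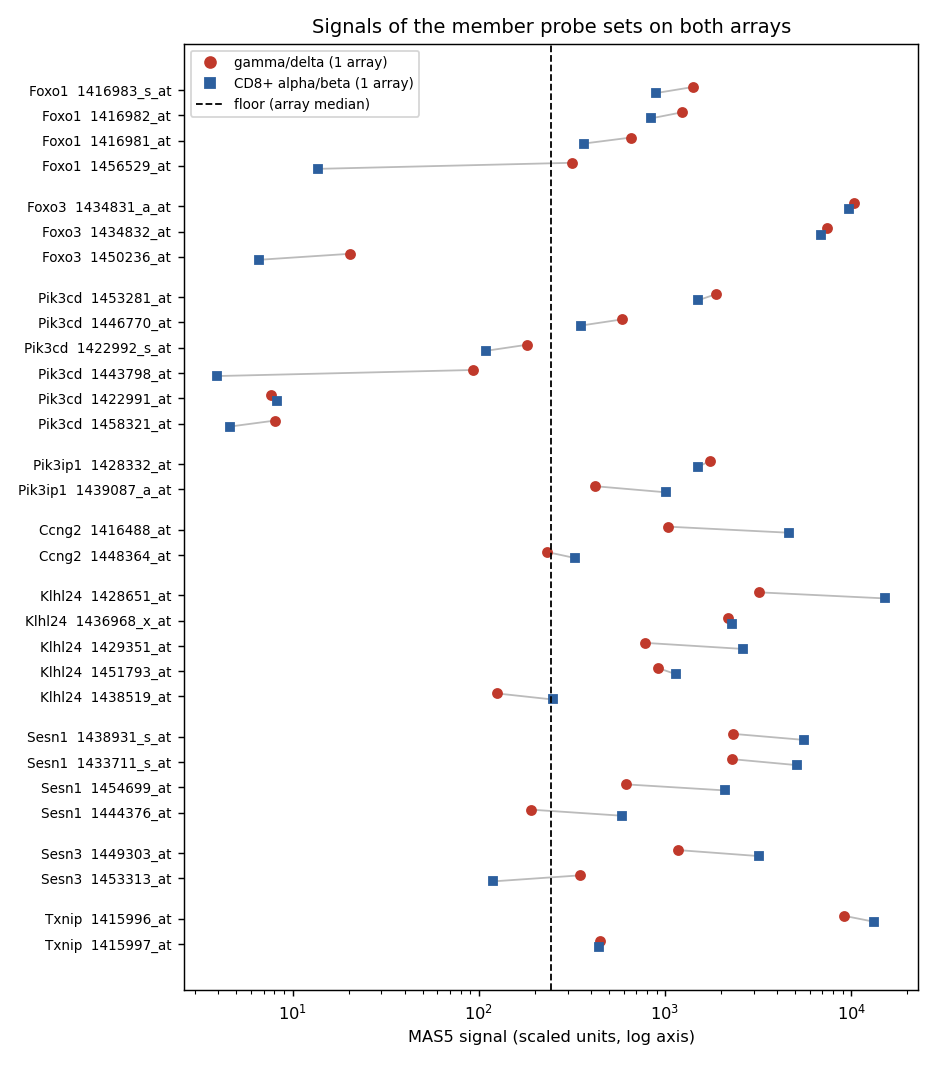
MAS5 signal (scaled units, log axis) of each of the 30 probe sets, with the gamma/delta array as circles and the CD8+ alpha/beta array as squares, 1 array each, and the floor of 243.3 as a dashed line. Rows can be read across but not against each other. All 4 rows of Sesn1 have the circle to the left, while all 4 rows of Foxo1 have it to the right.

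Foxo1, the FoxO factor that dominates naive T cell homeostasis, was higher in gamma/delta cells on each of its 4 probe sets and reached 2-fold on none. The probe set with the strongest signal, 1416983_s_at, read 1415 in gamma/delta cells against 895.3 in alpha/beta cells, a ratio of 1.58-fold (log2 ratio 0.66). The next, 1416982_at, read 1237 in gamma/delta cells against 843.7 in alpha/beta cells (1.47-fold). The third, 1416981_at, read 657.4 in gamma/delta cells against 365.0 in alpha/beta cells (1.80-fold). These 3 differ among themselves by less than the pooled spread between probe sets, at log2 ratios from 0.55 to 0.85. The fourth, 1456529_at, read 316.7 in gamma/delta cells against 13.7 in alpha/beta cells, which gives at least 1.30-fold. The weak alpha/beta reading of that probe set has no reliable size, and averaging all 4 probe sets raises the log2 ratio of the gene to 1.65, past 2-fold.

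Foxo3, a FoxO factor that also acts in lymphocyte quiescence, was nearly equal in the 2 preparations on the probe sets above the floor. Probe set 1434831_a_at read 10322 in gamma/delta cells against 9704 in alpha/beta cells (1.06-fold, log2 ratio 0.09). Probe set 1434832_at read 7360 in gamma/delta cells against 6880 in alpha/beta cells (1.07-fold, log2 ratio 0.10). The third, 1450236_at, whose annotation names a RefSeq mRNA, stayed below the floor throughout, at 20.5 in gamma/delta cells against 6.57 in alpha/beta cells. When that weak probe set is averaged with the others, the log2 ratio of the gene is 0.61. Foxo1 and Foxo3 thus ran the same way. The log2 ratio of Foxo1 exceeded that of Foxo3 by slightly more than the pooled spread between probe sets of 1 gene, a gap that does not separate them.

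Pik3cd encodes p110 delta, the catalytic PI3K subunit characteristic of leukocytes. Of its 6 probe sets, 2 had a ratio and 4 lay under the floor on both arrays. Probe set 1453281_at read 1877 in gamma/delta cells against 1505 in alpha/beta cells (1.25-fold, log2 ratio 0.32). Probe set 1446770_at read 584.9 in gamma/delta cells against 355.1 in alpha/beta cells (1.65-fold, log2 ratio 0.72). The 4 weak ones had signals from 7.63 to 181.9 on the gamma/delta array and from 3.95 to 109.7 on the alpha/beta array, and they include both probe sets of this gene whose annotation names a RefSeq mRNA. With all 6 averaged the gene lay under the floor on both arrays, so its ratio rests on the 2 stronger probe sets.

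Pik3ip1 encodes a transmembrane protein that binds p110 subunits and inhibits PI3K. Its 2 probe sets disagreed. Probe set 1428332_at read 1741 in gamma/delta cells against 1499 in alpha/beta cells (1.16-fold higher, log2 ratio 0.22). Probe set 1439087_a_at read 421.5 in gamma/delta cells against 1006 in alpha/beta cells, 2.39-fold lower (log2 ratio -1.26). No direction can be given for this gene, and averaging the probe sets turned its log2 ratio to -0.52.

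**Figure D2:**
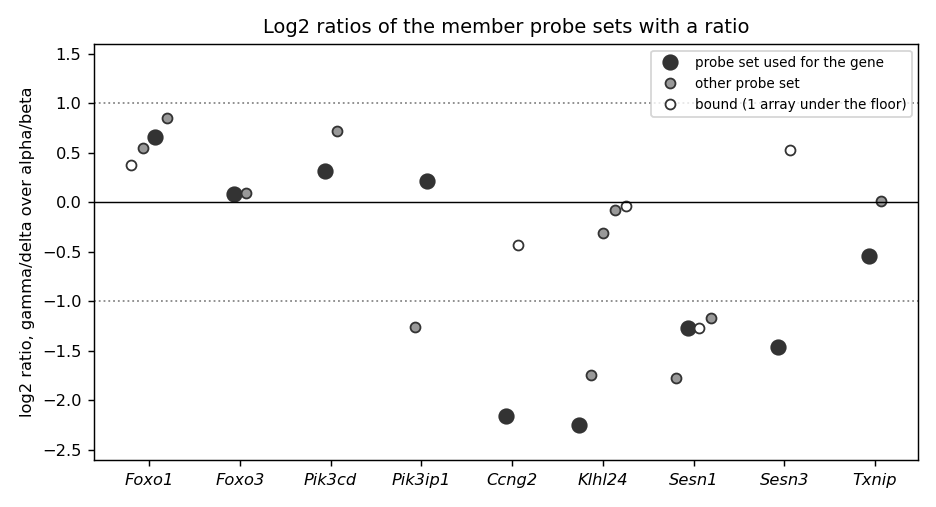
Log2 ratio of gamma/delta over CD8+ alpha/beta signal for the 25 probe sets with a ratio, by gene, with 1 array per group. Large filled points mark the probe set of the gene whose mean log2 signal is highest, small grey points the others, open points bounds, and dotted lines 2-fold. Sesn1 alone among the 9 genes has every point beyond the lower dotted line, and Pik3ip1, Sesn3 and Txnip have points on both sides of 0.

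The sestrins are stress-induced proteins that bind the GATOR2 complex and thereby restrain mTORC1, the growth-promoting kinase complex downstream of PI3K and amino acids. Sesn1 was lower in gamma/delta cells by 2-fold or more on all 4 of its probe sets. Probe set 1438931_s_at read 2314 in gamma/delta cells against 5568 in alpha/beta cells (2.41-fold lower, log2 ratio -1.27), and 1433711_s_at read 2278 in gamma/delta cells against 5132 in alpha/beta cells (2.25-fold lower). Probe set 1454699_at read 618.6 in gamma/delta cells against 2108 in alpha/beta cells (3.41-fold lower, log2 ratio -1.77). Probe set 1444376_at read 190.6 in gamma/delta cells, under the floor, and 584.6 in alpha/beta cells (at least 2.40-fold lower). The 4 log2 ratios span 0.60, close to the pooled spread of 0.50, and probe sets of 1 transcript on 1 pair of arrays are no replicates of the cells. With the floor raised to the 70th percentile of signals, the bound of 1444376_at shrank to -0.39 on the log2 scale, and the other 3 calls remained.

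Sesn3, the sestrin most closely tied to FoxO activity in other cell types, gave opposite readings. Probe set 1449303_at, annotated with a RefSeq mRNA, read 1172 in gamma/delta cells against 3213 in alpha/beta cells (2.74-fold lower, log2 ratio -1.46). Probe set 1453313_at read 350.8 in gamma/delta cells against 118.8 in alpha/beta cells, at least 1.44-fold higher. The first has the stronger signal on both arrays and stands for the gene. With both averaged the log2 ratio was 0.05, a value that takes the alpha/beta reading of 118.8, under the floor, as it stood. The direction of the average thus depends on a weak reading without a reliable size. The third sestrin, Sesn2, lay under the floor in gamma/delta cells at 90.5, against 287.7 in alpha/beta cells, at least 1.18-fold lower.

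Ccng2 encodes cyclin G2, an unconventional cyclin that accompanies cell cycle exit and is a classical FoxO target. Probe set 1416488_at read 1034 in gamma/delta cells against 4613 in alpha/beta cells, 4.46-fold lower (log2 ratio -2.16). Its ratio stood at rank 27 from the lowest among 20297 probe sets. Probe set 1448364_at read 231.3 in gamma/delta cells, just under the floor, and 327.4 in alpha/beta cells, at least 1.35-fold lower. Both probe sets run the same way, the second as a bound only, and with both averaged the log2 ratio was -1.33.

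Klhl24 encodes a BTB-kelch protein that acts as a substrate adaptor of a cullin-3 ubiquitin ligase, known from keratin turnover in skin. All 5 of its probe sets were lower in gamma/delta cells, but by very different amounts. Probe set 1428651_at read 3197 in gamma/delta cells against 15174 in alpha/beta cells, 4.75-fold lower (log2 ratio -2.25), at rank 22 from the lowest. Probe set 1429351_at read 782.7 in gamma/delta cells against 2624 in alpha/beta cells, 3.35-fold lower (log2 ratio -1.75). Of the other 3, 2 were close to equal and 1 gave only a bound. Probe set 1436968_x_at, of a class whose probes may bind other transcripts, read 2186 in gamma/delta cells against 2298 in alpha/beta cells (log2 ratio -0.07), and 1451793_at read 921.0 in gamma/delta cells against 1143 in alpha/beta cells (log2 ratio -0.31). Probe set 1438519_at read 125.0 in gamma/delta cells against 248.8 in alpha/beta cells, barely above the floor, at least 1.02-fold lower. With all 5 averaged the log2 ratio was -1.07, with the gamma/delta reading of 125.0 taken as it stood and not raised to the floor. Ratios 4-fold or more lower in gamma/delta cells were found on 41 of 20297 probe sets (0.202%), and 2 of these belong to Klhl24 and Ccng2.

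Txnip encodes thioredoxin-interacting protein, an arrestin-like protein that binds thioredoxin and limits glucose uptake. Probe set 1415996_at read 9123 in gamma/delta cells against 13310 in alpha/beta cells, 1.46-fold lower (log2 ratio -0.54). Probe set 1415997_at read 447.2 in gamma/delta cells against 442.9 in alpha/beta cells (log2 ratio 0.01). Neither reached 2-fold, and the probe sets differ from each other by slightly more than the pooled spread.

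Taking the probe set with the strongest signal for each gene, 4 of the 9 were lower in gamma/delta cells by 2-fold or more, namely Klhl24, Ccng2, Sesn3 and Sesn1, beside 3.93% of all 11914 genes with a ratio. None was higher by that much, beside 5.82% of all genes. With the probe sets of each gene averaged, the log2 ratio was -1.46 for Sesn1, -1.33 for Ccng2, -1.07 for Klhl24 and -0.52 for Pik3ip1. It was -0.27 for Txnip, 0.05 for Sesn3, 0.61 for Foxo3 and 1.65 for Foxo1, and Pik3cd had none. These averages took signals before they were raised to the floor, so weak readings entered in full. No share over all genes is given for that setting, so its calls are not counted. The median log2 ratio was -0.54 over the 9 genes, against 0.03 over all genes with a ratio. In order of log2 ratio the genes ran Foxo1, Pik3cd, Pik3ip1, Foxo3, Txnip, Sesn1, Sesn3, Ccng2 and Klhl24. Neighbours in that order lay closer together than the spread of 0.50 between probe sets, except Foxo3 and Txnip, Txnip and Sesn1, and Sesn3 and Ccng2. Such gaps are differences of 2 ratios, which vary by more than that spread, so the order is a description only. Of the 9 genes, 3 had probe sets on both sides of 0, while 52.8% of 4890 genes with at least 2 ratios did.

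**Figure D3:**
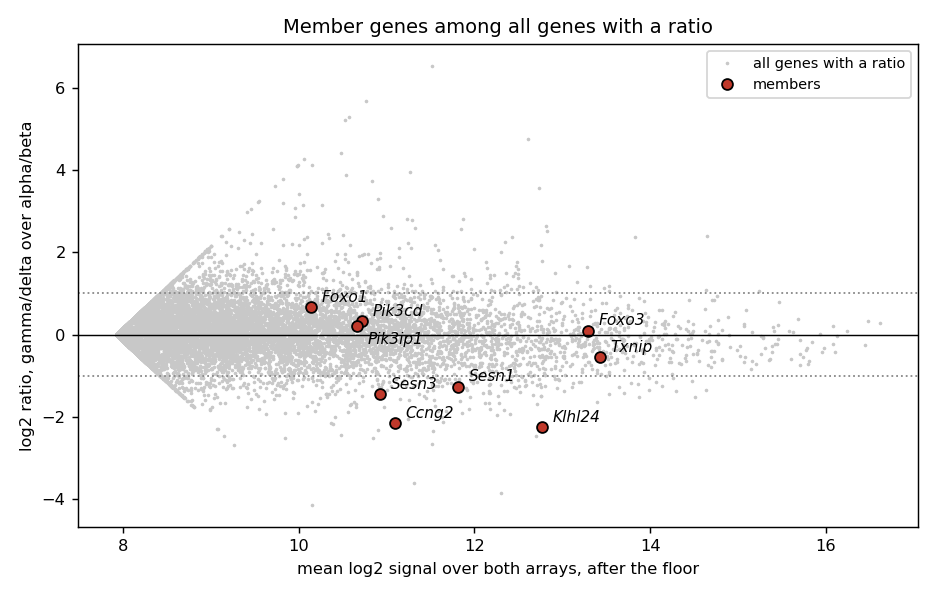
Log2 ratio of gamma/delta over CD8+ alpha/beta signal against mean log2 signal after the floor, with 1 array per group, for 11914 genes (grey) and the 9 FoxO pathway genes (red). Klhl24 at -2.25 and Ccng2 at -2.16 lie at the lower edge of the cloud, and Foxo1, Foxo3, Pik3cd and Pik3ip1 lie inside the dotted 2-fold lines just above 0.

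The genes around these members did not share one direction. For the counts that follow, 3.93% of all 11914 genes with a ratio were lower in gamma/delta cells by 2-fold or more. The share higher by 2-fold or more was 5.82%. In the list of FoxO factors and their regulators, 17 genes had a ratio, of which 2 were lower in gamma/delta cells by 2-fold or more and 0 higher, and the median log2 ratio was -0.18. The 2 were Crebbp, an acetyltransferase that acts as a coactivator (12511 in gamma/delta cells against 32179 in alpha/beta cells, 2.57-fold lower), and Prmt1, an arginine methyltransferase with FoxO1 among its substrates (246.1 in gamma/delta cells against 586.0 in alpha/beta cells, 2.38-fold lower). The 4 probe sets of Crebbp ran from -1.36 to 0.18 on the log2 scale and averaged -0.82, short of 2-fold, and under the 70th percentile floor Prmt1 had a log2 ratio of -0.39. Foxo4, the other FoxO factor with a ratio, read 1027 in gamma/delta cells against 1067 in alpha/beta cells. When the _x_at, _s_at and _a_at probe sets, which may bind several transcripts, were left out, the list's median was -0.79.

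Among class I PI3K subunits and regulators, 7 of 11 genes had a ratio, and none reached 2-fold in either direction on the probe set with the strongest signal. Other probe sets did. The 3 probe sets of Pik3r1, a regulatory subunit, with a ratio ran from -0.55 to 1.14 on the log2 scale. Pik3ip1 and Pik3ca each had a probe set lower by more than 2-fold, at -1.26 and -1.30. The median log2 ratio was 0.22, which is the value of Pik3ip1, a member whose probe sets disagreed. Without the 2 members, 5 genes remained, with 2 above 0, 3 below and a median of -0.09. Pik3cg, the catalytic gamma subunit, read 2758 in gamma/delta cells against 1845 in alpha/beta cells (1.49-fold higher), and its regulatory partner Pik3r5 read 1003 in gamma/delta cells against 577.1 in alpha/beta cells (1.74-fold higher). Pik3ca, the alpha catalytic subunit, read 3473 in gamma/delta cells against 6376 in alpha/beta cells, 1.84-fold lower. The 6 probe sets of Pik3ca with a ratio ran from -1.30 to 0.12 on the log2 scale. Of 11 phosphoinositide phosphatases and Akt or SGK kinases with a ratio, Sgk1 alone reached 2-fold. Sgk1, a kinase that phosphorylates FoxO3, read 4052 in gamma/delta cells against 9405 in alpha/beta cells, 2.32-fold lower. Akt1 and Akt2 had log2 ratios of 0.20 and 0.01.

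In the list of mTOR complexes and amino acid sensing, 20 genes had a ratio, 2 of them higher in gamma/delta cells by 2-fold or more and 3 lower, and the median log2 ratio was -0.17. Beside Sesn1 and Sesn3 the lower one was Rictor, the defining subunit of mTORC2, which phosphorylates Akt. Rictor read 899.6 in gamma/delta cells against 2808 in alpha/beta cells (3.12-fold lower), and its 5 probe sets ran from -1.64 to -0.03 on the log2 scale, with -0.65 for the gene when its probe sets were averaged. The higher ones were Ddit4, a stress-induced inhibitor of mTORC1, at 5644 in gamma/delta cells against 2114 in alpha/beta cells (2.67-fold higher), and Sec13, a GATOR2 and vesicle coat protein, at 895.0 in gamma/delta cells against 387.8 in alpha/beta cells (2.31-fold higher). The inhibitors of mTORC1 in this list therefore ran both ways, with Ddit4 higher and Sesn1 lower in gamma/delta cells.

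In the list of FoxO target genes of many cell types, 29 genes had a ratio. By 2-fold or more, 5 were lower in gamma/delta cells, namely Klhl24, Ccng2, Rictor, Sesn3 and Sesn1, and 2 were higher, and the median log2 ratio was -0.12. Without the members described above, 23 genes remained, with 1 lower, 2 higher and a median of 0.06, beside 0.03 over all genes. The higher ones were Ddit4 and Tnfsf10, which encodes the death ligand TRAIL and read 1284 in gamma/delta cells against 457.4 in alpha/beta cells (2.81-fold higher). The 3 probe sets of Tnfsf10 ran from 0.09 to 1.49 on the log2 scale. The cell cycle inhibitor Cdkn1b read 11299 in gamma/delta cells against 17910 in alpha/beta cells (1.59-fold lower). Its 2 probe sets with a ratio had log2 ratios of -1.38 and -0.66, so 1 of them was lower by more than 2-fold. The proapoptotic Bcl2l11 read 2803 in gamma/delta cells against 2690 in alpha/beta cells. The 2 probe sets of Bcl2l11 with a ratio had log2 ratios of -1.005 and 0.06, so its side depends on the probe set.

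Of 9 FoxO1 target genes of T cells with a ratio, 2 were lower in gamma/delta cells by 2-fold or more and 0 higher, and the median log2 ratio was -0.03. Il7r, the interleukin 7 receptor chain, read 13879 in gamma/delta cells against 39479 in alpha/beta cells (2.84-fold lower), with its 2 probe sets at -1.80 and -1.51 on the log2 scale. Lef1, a transcription factor of naive T cells, read 11679 in gamma/delta cells against 27658 in alpha/beta cells (2.37-fold lower), on its only probe set with a ratio. Averaging gave Lef1 a log2 ratio of -2.49, but that value draws on readings under the floor on both arrays and has no reliable size. The homing genes Klf2 and S1pr1 had log2 ratios of 0.16 and 0.29, and the chemokine receptor Ccr7 had one of -0.56. Among 11 Txnip relatives and thioredoxin genes, Arrdc1, an arrestin-domain protein, was 2.55-fold higher in gamma/delta cells (794.7 in gamma/delta cells against 311.5 in alpha/beta cells). Its 2 probe sets had log2 ratios of 0.49 and 1.35, and the call was lost under the 70th percentile floor (0.83) and with probe sets averaged, where the gene had no ratio. Mlxip, which encodes the glucose-responsive factor MondoA, an activator of Txnip, was 2.04-fold lower (747.2 in gamma/delta cells against 1526 in alpha/beta cells). The list's median was -0.18.

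**Figure D4:**
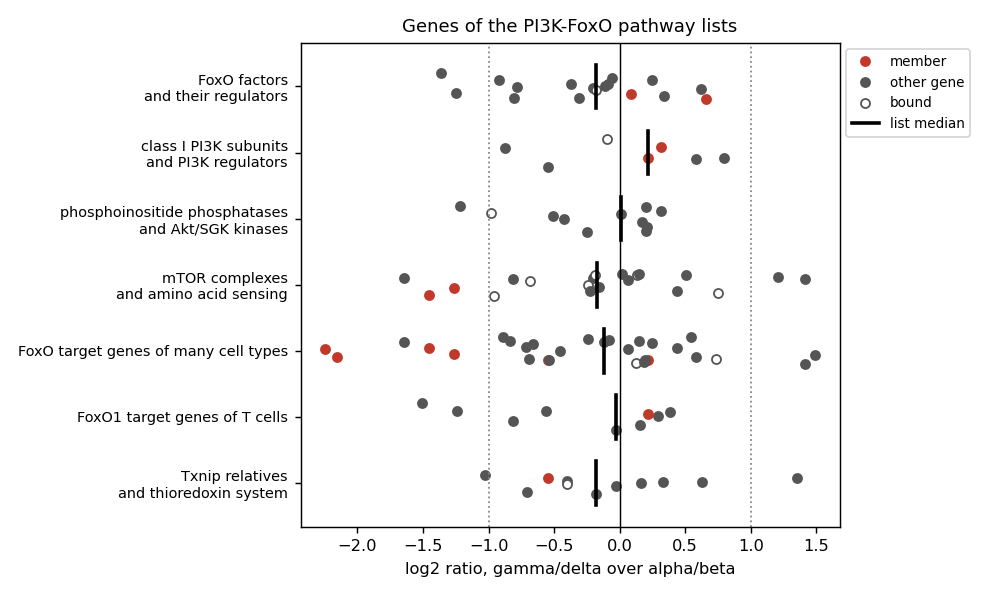
Log2 ratio of gamma/delta over CD8+ alpha/beta signal for each gene with a ratio in 7 pathway lists, with 1 array per group. Red points are the genes described above as members, open points bounds, bars list medians and dotted lines 2-fold. The list medians, members included, lie between -0.18 and 0.22, and the lowest points of the FoxO target list are Klhl24 and Ccng2.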

How the data were processed

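RNA of 2 preparations was hybridised to 1 Affymetrix MOE430 2.0 array each. The authors computed 1 linear intensity per probe set by MAS5, using version 1.0 of Affymetrix Expression Console, according to the labels and per the submitters' processing notes. The deposited intensities have a trimmed mean of 500.003 on each array (2% left out at each end), so they were used as deposited. Gene names came from a platform annotation, and the identifiers of all 30 member probe sets were found in the RefSeq genes of assembly GRCm38.p6. Each gene was represented by the probe set whose mean log2 signal was highest. The floor, the 2-fold call and the bounds are as given with the results, and the code that makes the calls was run first on simulated data with known ratios. Members and lists were chosen with earlier results of these data known. The naming rule took every member, every list gene at 2-fold or more (at most 6 a list) and the markers of the labelled cells. Sesn2, Foxo4, Pik3cg, Pik3r1, Pik3r5, Pik3ca, Phlpp2, Akt1, Akt2, Cdkn1b, Bcl2l11, Klf2, S1pr1 and Ccr7 were named after their values were seen. List genes without a probe set of 1 symbol were not analysed here. Alternatives were floors at the 30th and 70th percentile and none, median scaling, quantile normalization, loess (span 0.4), averaged probe sets, and leaving out the _x_at, _s_at and _a_at classes of probe sets. Probe sets were averaged on the log2 scale before the floor was applied. Python 3.11.15, pandas 2.3.3 and statsmodels 0.14.6 were used. Arrays have no read depth, and their number limits the precision.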

Additional observations from a re-analysis of the deposited data

Results flagged for a closer look

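Probe set 1444226_at is annotated to both Foxo3 and Gm38485, so it stands outside the comparison of probe sets with 1 symbol. It is given here because it carried signal above the floor, at 397.7 in gamma/delta cells against 356.0 in alpha/beta cells (log2 ratio 0.16), and it cannot be assigned to either gene.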

How the results depend on the processing

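The 9 probe sets lower by 2-fold or more in gamma/delta cells kept their direction under the 6 alternative floors and scalings, and all 9 kept the call except 1444376_at of Sesn1 under the 70th percentile floor. The count of those higher by 2-fold or more was 0 as reported. It was 2 of 26 under the 30th percentile floor, where 8.28% of all probe sets are 2-fold higher and 7.40% lower. With no floor it was 4 of 30, where 17.9% of all probe sets are 2-fold higher and 16.5% lower. These added calls come from signals under the reported floor. Averaging the probe sets of a gene gave Sesn3 a log2 ratio of 0.053 in place of -1.46. Its weaker probe set runs the other way, and the alpha/beta signal of that probe set, under the floor, was not raised before averaging. The median of FoxO factors and their regulators was -0.79 when the _x_at, _s_at and _a_at probe sets were left out, and the cause was not tested. The median over the 9 genes ran from -0.55 to -0.37 over all alternatives, with Pik3cd left without a ratio when probe sets were averaged. Of 112 list counts recomputed, 17 moved by more than 1.5 times, and of 145 recomputed probe set ratios 7 moved by more than the pooled SD of 0.50. No paired analysis was possible because each group has 1 array. Signals near the floor carry little order, and nothing here has a replicate check.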
